A study of Mus musculus with 6 samples.

Results

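Hox genes encode homeodomain transcription factors and lie in 4 clusters in the mouse, Hoxa on chromosome 6, Hoxb on chromosome 11, Hoxc on chromosome 15 and Hoxd on chromosome 2. Within a cluster, genes are numbered from anterior to posterior: low numbers act toward the head, high numbers toward the tail and the ends of the limbs and gut. Adult cells, connective tissue cells above all, keep part of the Hox pattern of the body site they came from, and the colon arises from a region where posterior Hox genes and the related Cdx factors are active. The members described here are all 57 probes whose gene symbol in the platform annotation is a Hox gene of 1 of the 4 clusters, of 45281 probes on the array. They cover 38 Hox genes, among 19057 genes that the array names.

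The samples were 6 bead arrays of MC38, a tumor cell line from the C57Bl/6 strain that the labels call colon carcinoma, all on 1 chip and with 2 arrays in each of 3 groups. Control cells were in normal growth medium with no treatment, unstimulated cells had 16 h in reduced serum with no treatment, and stimulated cells had 16 h of starvation and then S100A8/A9, a secreted calcium-binding protein pair, at 10 µg/mL for 6 h. Whether unstimulated cells were also kept for those further 6 h is not in the labels. Nothing in the labels tells whether replicates came from cultures grown apart, and the tests therefore rest on a spread between arrays that may be technical alone. In total RNA from a culture, fewer cells that express a gene and less RNA per cell cannot be told apart.

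Marker genes did not match colon epithelium. Of 10 colon epithelial markers with a probe, 0 were detected, where detected means a detection p-value below 0.01 on 2 or more of the 6 arrays. Both Cdx1 and Cdx2, homeobox genes of the intestinal epithelium, were among those not detected: the Cdx2 probe passed on 0 arrays, and 1 of the probes of Cdx1 passed on 1. Of 13 general epithelial markers only Muc1 was detected, on 2 arrays by 1 of its 4 probes. Of 12 fibroblast or mesenchymal markers 10 were detected, with a probe of Vim, Col3a1, Pdgfra, Pdgfrb, Dcn, Twist1, Zeb1 and Fn1 on all 6 arrays. Col1a1 passed on 3 arrays and Col1a2 on 4, with signals of 88.5 to 119.4 and 110.1 to 165.2. The fibroblast markers Lum and Thy1 passed on 0 arrays. The 4 leukocyte markers and 4 endothelial markers with a probe were not detected. The arrays detected 14877 to 16176 probes each, and 16 to 23 of the 57 Hox probes each, with the highest number of both on unstimulated replicate 1.

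Detected Hox genes lay mainly in the middle of the clusters. Over the 6 arrays, 21 of 57 Hox probes were detected (36.8%), beside 36.1% of all probes on the array, so the share was near that of the array as a whole. These 21 probes covered 17 genes, and 13 of the genes had a probe detected on all 6 arrays. By position number, 1 of 7 genes at positions 1 to 3 was detected, 13 of 22 at positions 4 to 10, and 3 of 9 at positions 11 to 13. Of the 13 genes detected on every array, 12 were at positions 4 to 10. These bands of positions are of unequal width, the middle one holds most genes with a probe, and no test was made between them.

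The clusters differed in how many genes were detected. In Hoxd, 5 of 9 genes were detected, all of them on all 6 arrays, and in Hoxa 6 of 10, in Hoxc 4 of 9 and in Hoxb 2 of 10. Only Hoxb5 of the Hoxb cluster was detected on all 6 arrays. These counts describe probes as well as genes, since a probe can miss a transcript, and no test was made between clusters.

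**Figure D1:**
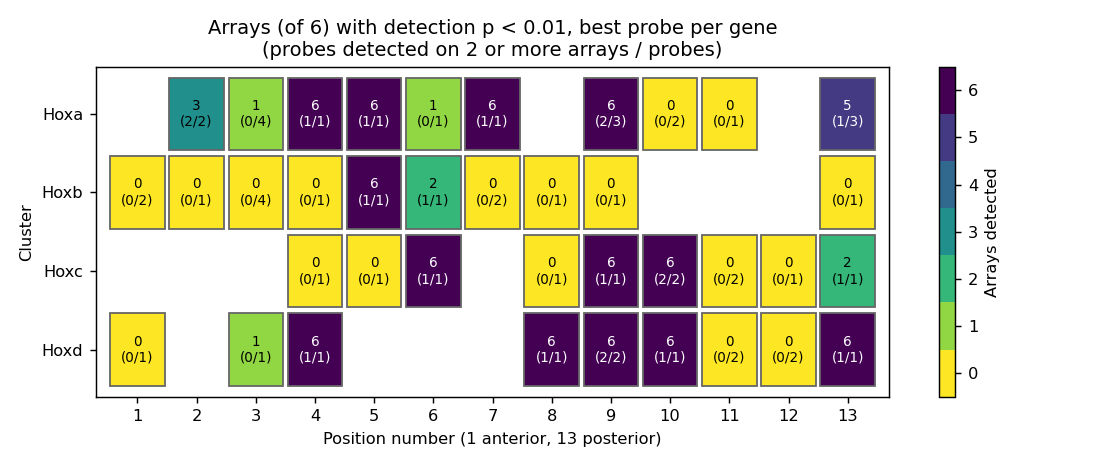
Detection of the Hox genes with a probe by cluster (rows) and position number (columns). The upper number and the color give the arrays, of 6, on which the gene's most often detected probe had a detection p below 0.01, and the fraction in parentheses gives detected probes of all probes of the gene. Cells at 6 arrays lie between positions 4 and 10 of Hoxa, Hoxc and Hoxd, with Hoxd13 beyond them, and Hoxb has 1 such cell.

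The anterior genes were near background. Hoxa2, a gene of the hindbrain and second branchial arch, was the only detected gene at positions 1 to 3. Its probes passed on 2 and 3 arrays, with signals of 97.9 to 126.8 and 105 to 142.8, and so lay just inside the threshold. Hoxa3, Hoxa6 and Hoxd3 lay just outside it: each had a probe that passed on 1 array, and in all 3 cases the array was unstimulated replicate 1. The other Hoxa3 probes passed on 0 arrays.

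Another 33 Hox probes passed on 0 arrays, with signals between 60.3 and 111.4. They were all the probes of Hoxb1, Hoxb2, Hoxb3, Hoxb4, Hoxb7, Hoxb8, Hoxb9 and Hoxb13, of Hoxa10 and Hoxa11, of Hoxc4, Hoxc5, Hoxc8, Hoxc11 and Hoxc12, and of Hoxd1, Hoxd11 and Hoxd12, with 3 of the 4 probes of Hoxa3, 2 of the 3 probes of Hoxa13 and 1 of the 3 probes of Hoxa9. Hoxb13, which in mammals marks the hindgut, prostate and tail end of the body, was thus not detected. For these probes only a bound on the level exists, and a low level was not detectable against the array's background.

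In the Hoxa cluster, the genes detected on all 6 arrays were Hoxa4, Hoxa5, Hoxa7 and Hoxa9. Hoxa7, which patterns the thoracic skeleton, had signals of 1497.5 and 1453.7 on control arrays, 1500 and 1264.2 on unstimulated arrays and 1132.7 and 1201.6 on stimulated arrays. Hoxa5, needed for lung and cervical patterning, had signals of 311.1 and 356 on control arrays, 383.8 and 321.6 on unstimulated arrays and 264.3 and 418.5 on stimulated arrays. The groups of both genes overlapped between control and unstimulated arrays. For Hoxa9, a gene also known from leukemia, the probe seen on all arrays had signals of 142.6 to 184.9 and a further one, seen on 5, of 110 to 142.2. Hoxa13, a gene of the distal limb, hindgut and urogenital tract, was detected by 1 of its 3 probes, on 5 arrays, and the disagreement between probes makes its level uncertain.

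In the Hoxc cluster, Hoxc6, Hoxc9 and Hoxc10 were detected on all 6 arrays. Hoxc6, a thoracic gene, had signals of 832.3 and 826.4 on control arrays, 862.4 and 889 on unstimulated arrays and 698.9 and 696.1 on stimulated arrays. Hoxc9, which acts in the thoracic spinal cord, had signals of 910.1 and 726.6, of 877.7 and 824.8, and of 599.8 and 918.7 in the same order of groups. Both Hoxc10 probes, for a gene of lumbar and hindlimb identity, were seen on all arrays, 1 with signals of 555.5 to 755.3 and 1 with signals of 162.8 to 234.6. Hoxc13, known for its part in hair and nails, passed on unstimulated replicate 1 and stimulated replicate 2 only, with signals of 130.8 and 128.9 there and of 90.5 to 119.7 on the other arrays.

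In the Hoxd cluster, Hoxd4, Hoxd8, Hoxd9, Hoxd10 and Hoxd13 were detected on all 6 arrays, while Hoxd11 and Hoxd12, which lie between Hoxd10 and Hoxd13, were not detected. Hoxd8 had signals of 1226.3 and 1691.4 on control arrays, 1486.8 and 1527.2 on unstimulated arrays and 1172.5 and 1261.1 on stimulated arrays. The probes of Hoxd9, a lumbar gene, had signals of 479.4 to 716.3 and of 478.9 to 831.9. Hoxd4, a cervical gene, had signals of 223.8 and 215.4, of 213.9 and 182.3, and of 181 and 147.5 on control, unstimulated and stimulated arrays. Hoxd13, the last gene of the cluster, best known from the digits, had signals of 188.9 and 170.6, of 141.5 and 134.2, and of 156.2 and 135.7 in that order.

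The promoters of these 5 detected Hoxd genes are shown because they are neighbours on 1 strand of 1 cluster of which Hoxd10 alone was called changed in the comparisons that follow. They are RefSeq sequences of build GRCm38.p6, plus strand, 5′ to 3′, from 250 bases before the start of transcription to 50 after it. Capitals mark matches, on either strand, to any of 3 motifs. The motif of the TATA box was searched with the letters TATAAA. For the GC box the letters searched were GGGCGG, and the CCAAT box was searched by the letters of its name.
Hoxd4, chr2:74721728-74722027: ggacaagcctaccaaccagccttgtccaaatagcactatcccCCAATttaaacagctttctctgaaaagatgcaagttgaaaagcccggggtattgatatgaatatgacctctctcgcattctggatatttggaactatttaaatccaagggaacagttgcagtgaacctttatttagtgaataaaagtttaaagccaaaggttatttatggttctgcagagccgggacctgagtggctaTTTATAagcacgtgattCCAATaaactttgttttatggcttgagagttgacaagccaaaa
Hoxd8, chr2:74704365-74704664: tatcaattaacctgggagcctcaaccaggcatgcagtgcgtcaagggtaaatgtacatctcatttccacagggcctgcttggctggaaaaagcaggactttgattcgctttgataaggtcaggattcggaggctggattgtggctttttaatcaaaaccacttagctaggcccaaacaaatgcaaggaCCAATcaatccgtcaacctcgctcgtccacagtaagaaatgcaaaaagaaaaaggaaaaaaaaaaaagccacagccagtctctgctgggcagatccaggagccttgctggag
Hoxd9, chr2:74697513-74697812: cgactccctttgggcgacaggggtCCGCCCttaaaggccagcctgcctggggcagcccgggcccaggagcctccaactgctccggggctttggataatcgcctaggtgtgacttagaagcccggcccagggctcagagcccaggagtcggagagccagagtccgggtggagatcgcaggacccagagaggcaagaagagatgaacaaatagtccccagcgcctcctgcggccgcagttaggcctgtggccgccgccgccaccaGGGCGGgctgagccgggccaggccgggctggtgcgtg
Hoxd10, chr2:74691641-74691940: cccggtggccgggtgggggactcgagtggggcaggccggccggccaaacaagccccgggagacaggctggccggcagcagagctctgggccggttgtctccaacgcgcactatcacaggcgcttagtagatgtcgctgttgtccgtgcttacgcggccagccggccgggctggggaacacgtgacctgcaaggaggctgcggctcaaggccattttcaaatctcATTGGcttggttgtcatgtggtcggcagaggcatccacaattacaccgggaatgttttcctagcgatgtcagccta
Hoxd13, chr2:74667975-74668274: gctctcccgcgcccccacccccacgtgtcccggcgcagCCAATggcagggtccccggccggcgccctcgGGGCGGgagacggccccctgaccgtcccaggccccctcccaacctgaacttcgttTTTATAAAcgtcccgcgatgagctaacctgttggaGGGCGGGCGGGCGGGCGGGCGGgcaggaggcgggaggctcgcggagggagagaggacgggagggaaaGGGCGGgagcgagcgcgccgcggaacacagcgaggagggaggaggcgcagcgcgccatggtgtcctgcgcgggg

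The 5 promoters differed in base composition and in these letters. GC content was 39.7% for Hoxd4, 46.7% for Hoxd8, 68.3% for Hoxd9, 62.7% for Hoxd10 and 74.3% for Hoxd13, beside a median of 52.7% over 32851 promoters of the table. The Hoxd10 window held 1 CCAAT box and no TATA or GC box, Hoxd8 likewise held 1 CCAAT box, and Hoxd9 held 2 GC boxes. Hoxd4 held 1 TATA and 2 CCAAT boxes, and Hoxd13 held 7 GC boxes, 5 of them overlapping in a repeat, with 1 CCAAT box and 2 overlapping matches to the TATA box. Counted from the start of transcription, the TATA letters began at -10 in Hoxd4 and at -124 and -126 in Hoxd13. All these boxes are matches of letters, and whether they act was not tested. Among all promoters, 13.6% held a TATA box, 37.4% a CCAAT box and 35.7% a GC box. A search for a HOX-PBX motif (TGATTNAT, in 3.22% of promoters), a cyclic AMP response element (TGACGTCA, 1.79%) and an E2F motif (TTTCCCGC, 1.07%) found none in the 5 windows.

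**Figure D2:**
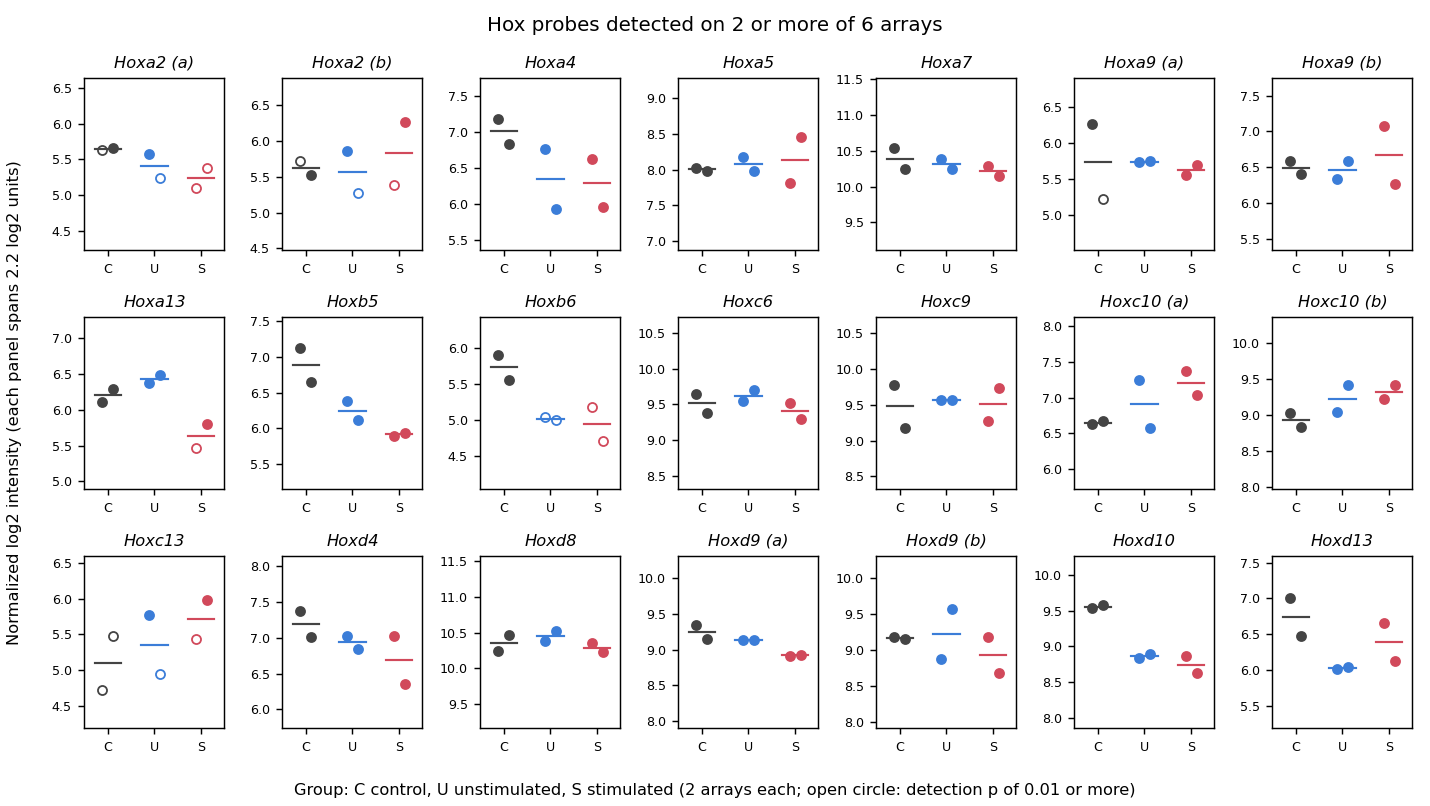
Normalized log2 intensity of the 21 detected Hox probes on each array, with the group mean as a bar. Filled circles had a detection p below 0.01, and (a) and (b) are different probes of a gene. Both control arrays lie above the other 4 for Hoxd10, Hoxb5, Hoxb6 and Hoxa4 and for panel (a) of Hoxa2 and of Hoxd9, and below them for panel (b) of Hoxc10.

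Few Hox probes were called lower in cells kept in reduced serum, and none had a measured change of 2-fold or more. Between unstimulated and control cells, 3 of 21 tested Hox probes fell and 0 rose (limma, Benjamini-Hochberg adjusted p below 0.05 over 16355 probes), 14.3% of them, beside 25.8% of all tested probes called in either direction and 12.5% called lower. The share of Hox probes called was thus below that of the array in either direction and near it for lower calls, differences that were not tested. The 3 include Hoxb6, which passed the detection filter through the control arrays alone and so counts only as a description. The median log2 fold change was -0.04 over the Hox probes and -0.03 over all tested probes. No Hox probe was both called and changed by 2-fold or more, beside 6.91% of all tested probes. The groups did not overlap for 9 of 21 Hox probes, 7 lower and 2 higher, beside 66.3% of all tested probes.

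Hoxd10, a gene of lumbar and hindlimb identity, had signals of 772.3 and 944.1 on control arrays and 567.8 and 547.2 on unstimulated arrays. Both control arrays lay above both unstimulated arrays. It was 1.61-fold lower (a log2 difference of -0.69 with an SE of 0.15, 2 arrays in each group, limma adjusted p = 0.015). Hoxb5, which acts in the neural crest of the gut and in the thorax, had signals of 199.2 and 182.9 on control and 162.2 and 137.5 on unstimulated arrays, again without overlap, and was 1.55-fold lower (-0.63 ± 0.20, limma adjusted p = 0.0459). Hoxb6, its neighbour in the cluster, had signals of 127 and 123 on control arrays, the only arrays on which it was detected, and 105 and 98.4 on unstimulated arrays. Having passed the detection filter through the control group alone, it had to come out lower elsewhere, so that its call is a description and its fold a bound of at least 1.21-fold lower.

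These 3 calls were close to the threshold. Without either unstimulated array or without control replicate 1, 0 Hox probes were called. Hoxd10 kept a log2 fold change of -0.73 to -0.66 whichever array was left out but missed the threshold without any 1 of the 4 arrays compared (limma adjusted p 0.0626 to 0.0743). It passed in the other 10 of 14 alternative fits. Hoxb5 passed in 4 of 14. It missed the threshold without either unstimulated array, either stimulated array or control replicate 1 (limma adjusted p 0.0565 to 0.232), with median scaling (0.0686), with either other detection filter (0.0637 and 0.107), and without background subtraction or with the deposited log2 table, where its log2 fold change was -0.37 (0.0508). Hoxb6 was called in 6 of 14, and its log2 fold change was -0.30 without background subtraction. Hoxd13 came next: with signals on control arrays above both unstimulated arrays, it had a log2 fold change of -0.71 ± 0.23 (limma adjusted p = 0.0555), and it passed in 9 of 14 alternative fits. Hoxa4, a cervical gene, had signals of 205.9 and 198 on control arrays and 187.9 and 129.1 on unstimulated arrays, with a log2 fold change of -0.67 ± 0.31 (limma adjusted p = 0.142), which was -0.26 without unstimulated replicate 2 and -1.08 without unstimulated replicate 1.

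The 18 probes not called had log2 fold changes of -0.71 to 0.29, with Hoxd13 and Hoxa4 at the low end. For 15 of all 21, the 95% confidence interval lay within a 2-fold change in either direction. Among the neighbours of Hoxd10, Hoxd8 was at 0.10 (interval -0.27 to 0.46) and the probes of Hoxd9 at -0.11 (-0.46 to 0.23) and 0.06 (-0.53 to 0.65). Hoxa7 was at -0.07 (-0.45 to 0.32) and Hoxc6 at 0.11 (-0.29 to 0.50). Over the same groups the summed raw signal of the 12 fibroblast or mesenchymal markers, with 1 probe per gene, was 18400 to 27500 on control arrays. On unstimulated arrays it was 30500 to 35200. Vim reached 20272.7 and the next highest marker, Pdgfra, 4232.1, so the sum leans on Vim and does not show that the markers rose as a set. The sums of the colon epithelial markers, none of them detected, were 872 to 966 and 894 to 924. The part of these markers in the Hox results was not tested.

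**Figure D3:**
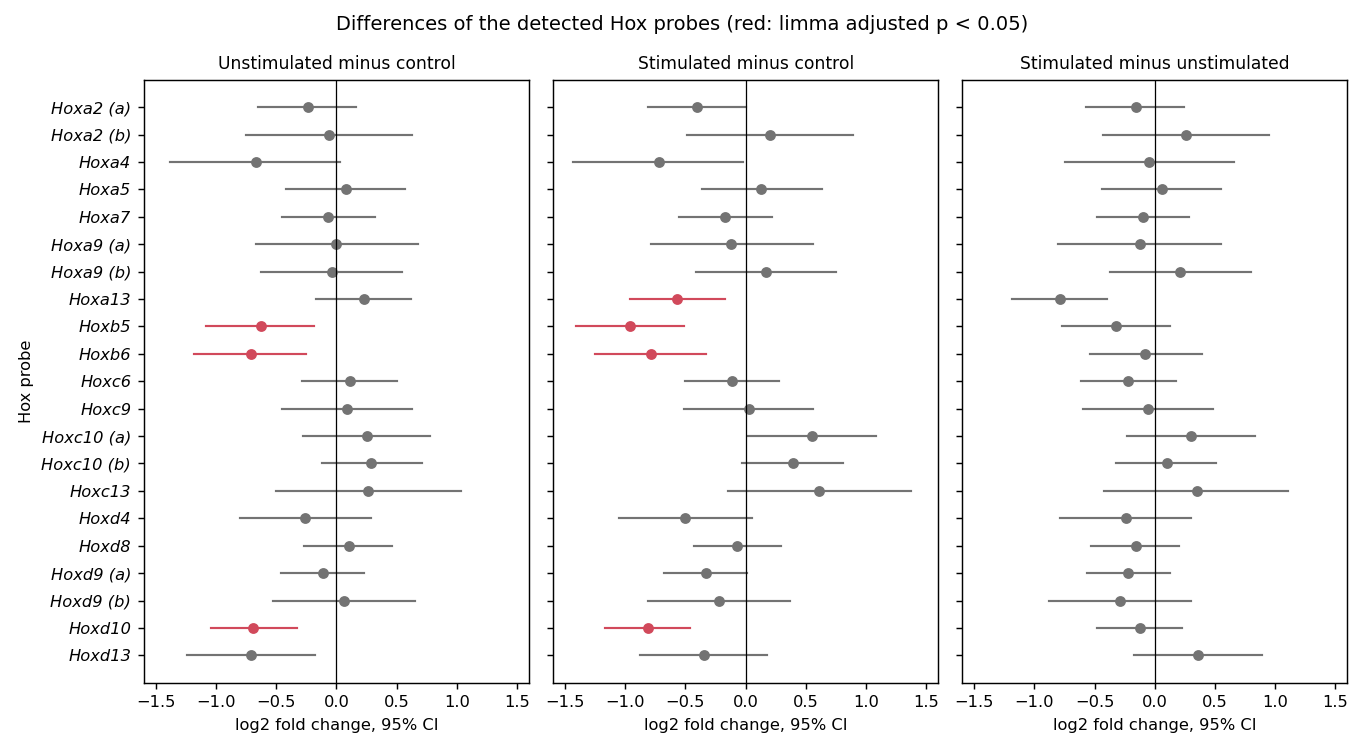
Log2 fold change of each detected Hox probe with its 95% confidence interval from limma, in 3 comparisons. Red marks an adjusted p below 0.05: Hoxb5, Hoxb6 and Hoxd10 in both comparisons with control, Hoxa13 against control in stimulated cells, and 0 probes between stimulated and unstimulated cells.

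S100A8/A9 on starved cells was followed by no called change in a Hox probe. In stimulated against unstimulated cells 0 of 21 Hox probes were called by limma and 1, Hoxa13, had an unadjusted p below 0.05, beside 10 calls, or 0.0611%, among all 16355 tested probes. Those 10 were higher and 0 lower, a split that became 13 and 3 with median scaling and 37 and 12 without background subtraction, and under these settings too 0 Hox probes were called. Hox log2 fold changes ran from -0.79 to 0.36 with a median of -0.10, beside 0.00 for all tested probes. Groups did not overlap for 7 of 21 Hox probes, 6 lower and 1 higher, beside 37.4% of all tested probes. For 19 of the 21, the 95% confidence interval lay within a 2-fold change, so larger changes lay outside the intervals of those 19.

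Hoxa13 was the probe farthest from 0. Its signals were 161.3 and 157.7 on unstimulated arrays and 107.4 and 121.7 on stimulated arrays, 1 of which missed detection. The log2 fold change was -0.79 ± 0.17 (interval -1.19 to -0.40, limma adjusted p = 0.257), which did not pass. The log2 fold changes of the probes with lower and not overlapping stimulated values other than Hoxa13 and Hoxb5 were between -0.22 and -0.12. They belonged to Hoxa9, Hoxc6, Hoxd8 and Hoxd9. Hoxb5 was at -0.32 ± 0.20 (limma adjusted p = 0.748) and Hoxd10 at -0.12 ± 0.15 (limma adjusted p = 0.903). The only probe with higher and not overlapping stimulated values was Hoxd13, at 0.36 ± 0.23 (limma adjusted p = 0.771).

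Stimulated cells set against control cells, which are the same control arrays as in the starvation comparison, gave 4 Hox probes lower and 0 higher, 19% of 21, beside 24.6% of all tested probes called and 12.1% called lower. None of the 4 was past 2-fold, beside 6.92% of all tested probes both called and changed by 2-fold or more. Hoxd10 had signals of 469 and 464 on stimulated arrays, below both control arrays, and was 1.76-fold lower (-0.81 ± 0.15, limma adjusted p = 0.00844). Hoxb5 had signals of 121.3 and 127.4 and was 1.94-fold lower (-0.96 ± 0.20, limma adjusted p = 0.011). Its log2 fold change was smaller, at -0.53, without background subtraction or with the deposited log2 table. Hoxa13 was 1.48-fold lower (-0.57 ± 0.17, limma adjusted p = 0.0439). Hoxb6 was at least 1.11-fold lower, again as a description, since only the control arrays had brought it past the detection filter.

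Of these 4, Hoxd10 held best. It passed in all 14 alternative fits (highest limma adjusted p = 0.0475), and Hoxb5 in all but the fit without control replicate 1 (0.0649). Hoxa13 passed in 3 of 14. It missed the threshold without any 1 array other than stimulated replicate 2 (limma adjusted p 0.0647 to 0.198), with an offset of 50 (0.08), with median scaling (0.0624), with either other detection filter (0.0614 and 0.0855), and without background subtraction or with the deposited log2 table, where its log2 fold change was -0.26 (0.147). Hoxb6 was called in 9 of 14, and its log2 fold change was -0.34 without background subtraction. The count was 1 without control replicate 1. The groups did not overlap for 9 of 21 Hox probes, 7 lower and 2 higher, beside 64.8% of all tested probes. The 2 higher were both probes of Hoxc10, at 0.55 ± 0.23 (limma adjusted p = 0.118) and 0.39 ± 0.18 (limma adjusted p = 0.15), which did not pass. Summed raw mesenchymal marker signals, with the limit given above, were 30100 to 30300 on the stimulated arrays, against the 18400 to 27500 given for control arrays.

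The partners of Hox proteins were mostly present. TALE homeodomain proteins of the PBX, MEIS and PREP families bind DNA together with Hox proteins. Of such genes listed, 7 were tested. In unstimulated against control cells 1 rose and 0 fell, beside 26.7% of 8909 genes called with 1 probe per gene, and the median log2 fold change was -0.16. The gene that rose was Pknox2 (log2 fold change 0.53 ± 0.16, limma adjusted p = 0.0442), with 1 of its 6 probes detected. This call was lost without any 1 of the unstimulated or control arrays, with median scaling and with either other detection filter. Meis1 was detected on all 6 arrays and stood at 0.40 ± 0.18 (limma adjusted p = 0.133). In stimulated against control cells 0 of the 7 passed.

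Regulators that act upstream of Hox clusters showed mixed values. Retinoic acid induces anterior Hox genes through nuclear receptors, and 5 of its 16 listed genes with a probe were tested, while the synthesis enzymes Aldh1a1, Aldh1a2 and Aldh1a3 and the degrading enzymes Cyp26a1 and Cyp26b1 were detected on 0 arrays. In unstimulated against control cells 0 of the 5 passed. In stimulated against control cells, beside 25.2% of genes called, 1 was called higher and 1 lower. The receptor gene Rara was at least 1.39-fold higher. It had passed the detection filter through the other groups alone, so that its call is a description. Its partner Rxra fell by 1.07 on the log2 scale (SE 0.21, limma adjusted p = 0.00953). Without control replicate 2 the list had 1 call. The ParaHox list, which holds Cdx1, Cdx2 and Cdx4, had 1 tested gene, Pdx1, of 6, and it passed in neither comparison.

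Polycomb proteins keep Hox clusters silent through methylation of histone H3 and through a ubiquitin ligase complex, and trithorax proteins oppose them. Of 24 tested Polycomb genes, 5 fell and 1 rose in unstimulated against control cells, beside 26.7% of genes called (median -0.20, beside 0.00 for all 8909 genes). Ezh2, the H3 lysine methyltransferase, fell by 0.64 (SE 0.17, limma adjusted p = 0.0258), and its other detected probe was at -1.18. Eed, a subunit of the same complex, was at -0.54 ± 0.16 (limma adjusted p = 0.0425) and Rnf2, the ubiquitin ligase, at -0.51 ± 0.15 (limma adjusted p = 0.0413). Ring1, a close relative of Rnf2, was at 0.57 ± 0.15 (limma adjusted p = 0.0268), with 0.38 on its other probe. The remaining genes that fell were Mtf2 and Cbx2, subunits of the methylating and the ubiquitin ligase complexes. With median scaling, or without any 1 of the unstimulated or control arrays, 0 Polycomb genes were called.

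In stimulated against control cells 2 of 24 Polycomb genes fell, beside 25.2% of genes called. They were Ezh2 (-0.73 ± 0.17, limma adjusted p = 0.0166) and Phf19, a further subunit of its complex, and the count was 0 or 1 without any 1 array except stimulated replicate 2. Of 15 tested trithorax and H3K27 demethylase genes, 1 fell and 0 rose in each comparison with control, beside 26.7% and 25.2% of genes called. It was Dot1l, an H3 methyltransferase, at -0.51 ± 0.16 (limma adjusted p = 0.0482) in unstimulated and -0.66 ± 0.16 (limma adjusted p = 0.0198) in stimulated cells. Its first call was lost with median scaling, with either other detection filter, with the replicate block and without any 1 of the 6 arrays. The second was lost without any 1 of the control or stimulated arrays.

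Some other genes of positional identity had larger measured changes than any Hox gene, a difference that was not tested. Of 43 listed homeobox, T-box and related genes, 38 had a probe and 17 were tested. In unstimulated against control cells 4 rose and 1 fell (median 0.07, beside 26.7% of genes called). Osr2, a zinc finger gene of limb, palate and kidney mesenchyme, rose by 1.58 on the log2 scale (SE 0.16, limma adjusted p = 0.000631) and its other probe was at 1.32. Osr1, its relative in intermediate and lateral mesoderm, rose by 1.42 (SE 0.20, limma adjusted p = 0.00261). Prrx1, a limb mesenchyme homeobox gene, rose by 0.63 (SE 0.17, limma adjusted p = 0.0264), with 0.46, 1.1 and 1.19 on its other detected probes, and Dlx1, a forebrain and branchial arch gene, fell by 0.68 (SE 0.18, limma adjusted p = 0.0288). The other gene that rose was Dlx3.

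Against control, stimulated cells had 2 of these 17 genes higher and 2 lower, beside 25.2% of genes called, so that the share was near that of all genes. Osr2 was at 1.05 ± 0.16 (limma adjusted p = 0.00334), Prrx1 at 0.66 ± 0.17 (limma adjusted p = 0.0235) and Dlx1 at -0.69 ± 0.18 (limma adjusted p = 0.028), while Osr1 was at 0.18 ± 0.20 (limma adjusted p = 0.554). The other gene that fell was Msx1. The count of 5 in unstimulated cells became 2 without control replicate 1 and 3 without any 1 of the other control and unstimulated arrays or with median scaling, and in stimulated cells the count of 4 became 1 without control replicate 1 or either stimulated array. Foxf1 and Foxf2, which mark gut mesenchyme, were tested and did not pass, and Barx1, Nkx2-3 and Foxl1, further genes of gut mesenchyme, were detected on 0 arrays.

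Genes near the clusters gave no common direction. Of 21 genes listed as such, 19 lay within 1 Mb of a cluster in the RefSeq gene table, Prac1 and Prac2 not being placed there, and 13 were tested. In unstimulated against control cells 1 rose and 1 fell with a median of 0.00, and in stimulated against control cells 1 rose and 2 fell, beside 26.7% and 25.2% of genes called. Calcoco1, near the Hoxc cluster, rose by 1.09 (SE 0.18, limma adjusted p = 0.00493) and reached 1.79 ± 0.18 in stimulated cells (limma adjusted p = 0.000643). Cbx5, at the same cluster and encoding a heterochromatin protein, fell by 0.78 (SE 0.18, limma adjusted p = 0.016) and was at -0.70 ± 0.18 in stimulated cells (limma adjusted p = 0.0239). Hnrnpa1, an RNA-binding protein gene of the same neighbourhood, fell by 0.48 in stimulated cells (SE 0.14, limma adjusted p = 0.0419), with -0.59 and -1.09 on its other probes. In unstimulated cells the probe read for the list was at -0.34 ± 0.14 (limma adjusted p = 0.116) and did not pass. The other Hnrnpa1 probes were at -1.01 and -1.02 there, so the lower values were not confined to stimulated cells. The counts of 2 and 3 in these comparisons were 1 without control replicate 1, the first also 1 without unstimulated replicate 2, the second also 1 without either stimulated array. In stimulated against unstimulated cells 0 genes of any of these lists passed, beside 0.0786% of 8909 genes called.

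**Figure D4:**
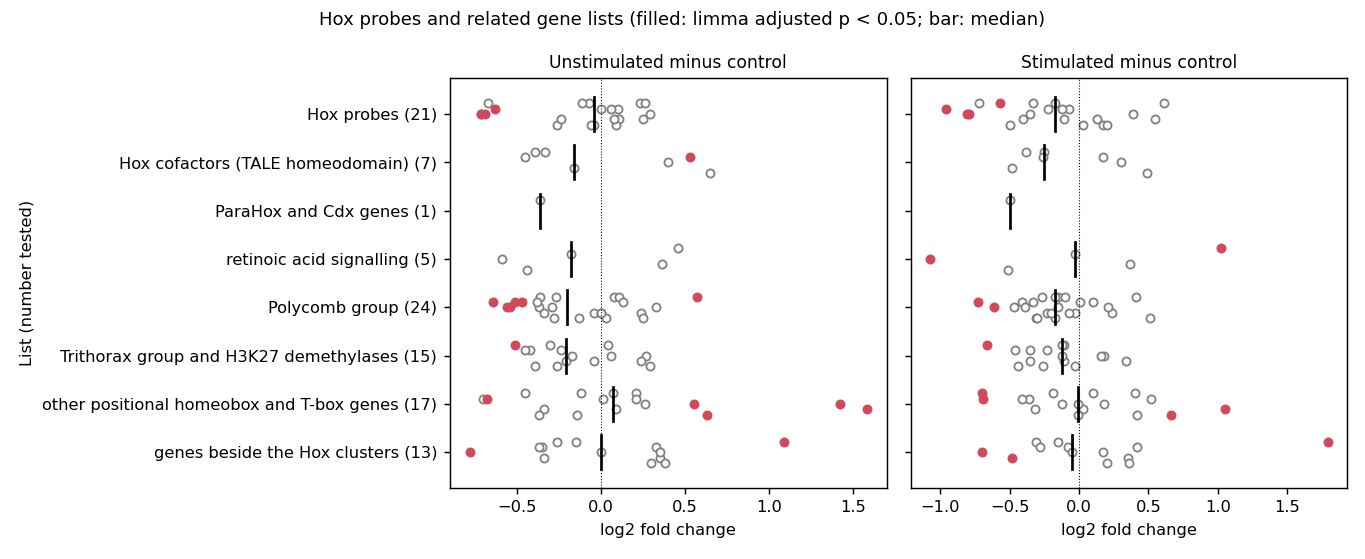
Log2 fold change of the 21 Hox probes and of the tested genes of 7 related lists (1 probe per gene) in the comparisons with control, with filled circles for an adjusted p below 0.05 and a bar at the list's median. Hox probes span -0.71 to 0.29 in unstimulated cells and -0.96 to 0.61 in stimulated cells. Osr1, Osr2, Calcoco1 and Rxra reach beyond 1 in size in at least 1 comparison. Rara is also drawn beyond 1 in stimulated cells, but neither control array detected it and only a bound of at least 1.39-fold holds.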

How the data were processed

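Per the labels' protocols, Trizol-extracted RNA was treated with DNase I on columns and amplified to biotin-labelled cRNA. The authors deposited probe signals as intensities, linear and with the background left in. They also deposited detection p-values, which set a probe against the negative controls of its array. The deposited table of log2 values equalled quantile-normalized log2 signals to within 0.00203. No source used here names the summarizing software.

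Signals were corrected and normalized with neqc (normexp, offset 16, quantile, log2) in limma 3.58.1 (R 4.3.3). Of 45281 probes, 34885 had 1 gene symbol, 18 several and 10378 none. The 16355 probes with a detection p below 0.01 on at least 2 arrays entered 1 linear model with a mean per group (3 residual and 5.37 prior degrees of freedom). Benjamini-Hochberg adjustment ran over all of them, and calls were made at an adjusted p below 0.05. For lists, the probe with the highest mean of each gene was read from that fit. An "at least" fold applies to a gene that neither array of the dimmer group detected: it sets the brighter mean against a dimmer mean in which each array holds its lowest detected value, or the probe's own value where that is higher. The small number of arrays limits the precision. The fit was tried on simulated data for unstimulated against control cells. It called 11 of 67 probes changed 1.5-fold (16.4%), 57 of 67 changed 2-fold and all 66 changed 4-fold. Most changes of 1.5-fold were thus missed there. The simulated set held far fewer changed probes than were called in the real data, so the shares may differ.

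By the rule for names, values per array were given for detected Hox probes, fold changes for called ones, and values for up to 4 called genes per list by lowest adjusted p, with Cdx1, Cdx2, Ezh2 and Meis1 always. Some items are not reported here. Hox probes given with a fold change that did not pass, the tested or undetected list genes named beyond these, and Mtf2, Cbx2, Phf19, Dlx3 and Msx1 were chosen after their values were seen. The members and lists were chosen with earlier results of these data known. Each group held neighbouring positions of the chip, so that chip position and treatment cannot be told apart. Deviations of equal replicate numbers correlated at -0.03 between groups, so no shared effect of the number was seen over the array. This value cannot show whether the arrays were paired by culture or day. Alternatives changed the background step, the offset, the scaling, the filter, the probes per gene, the replicate block, the values used (the deposited log2 table) and the arrays included.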

Additional observations from a re-analysis of the deposited data

How the results depend on the processing

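Directions of the called Hox probes were kept under all 14 alternatives run for each (another background step, offset, scaling or filter, 1 probe per gene, the replicate block, the deposited log2 values and each array left out), but calls were not. Between unstimulated and control cells the 3 Hox calls became 1 without a detection filter, and 0 to 3 when 1 array was left out. With a replicate block they became 5, with Hoxa4 and Hoxd13 added. Whether equal replicate numbers pair the arrays is not known. In stimulated against control cells the 4 Hox calls became 2 without background subtraction, without a filter or with the deposited log2 table, and 1 to 4 when 1 array was left out. Hox calls in stimulated against unstimulated cells stayed at 0 under all alternatives run. Detected Hox probes were 27 at a detection p below 0.05, 24 with 1 array enough, 15 when all 6 were asked for and 19 to 21 when 1 array was left out. Among all tested probes, calls were 2746 and 2589 in the comparisons of unstimulated and stimulated with control cells when 1 probe per gene was used, which tests fewer features, and 1707 to 4229 and 1910 to 3512 when 1 array was left out. In stimulated against unstimulated cells they were 49 without background subtraction, 49 with the deposited log2 table, 41 with an offset of 50, 16 with median scaling, 6 without a filter and 4 to 6 when 1 array was left out. The cause of these shifts was not tested. Median scaling moved the median of all tested probes by -0.12 in stimulated against unstimulated cells and, in stimulated against control cells, turned a split of 2046 higher and 1975 lower into 1437 and 2161. Counts for the related lists were recomputed under the same alternatives, a choice made after seeing the data, and the Polycomb count ran from 0 to 6 in unstimulated against control cells. With signals close to background, as for Hoxb6, Hoxa13, Hoxa2 and Hoxc13, the size of a change is a bound or uncertain. The size for Hoxb5 also depended on the background step. In stimulated against control cells its log2 fold change was -0.96 in the main fit and -0.53 without background subtraction.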
